A study of Sus scrofa with 36 samples.

Results

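The genes described here are the protein coding zinc finger genes of the pig heart whose symbol begins with ZNF or ZFP followed by a number. They were taken from a table of gene counts by that rule, leaving out ZNF292, and were tested when at least 10 counts were found in at least 3 of the 12 libraries. Of 120 such genes in the table, 119 met this condition, and they made up 119 of the 5526 genes tested and of the 4591 protein coding genes tested. The gene left out, ZNF296, had 7 counts over all 12 libraries. The table used here lists genes of 4 chromosomes, 1, 2, 6 and 13, so zinc finger genes of other chromosomes, and of a part of chromosome 2, were not analysed here. The study followed RNA in hearts of domestic Yorkshire pigs during the first weeks after birth, a period in which pig cardiomyocytes stop dividing, and compared postnatal day 1 (P1) with P3, P7 and P28. Total RNA of whole heart tissue from normally fed pigs, with ribosomal RNA removed, was sequenced from 3 pigs at each age, and no group carried a treatment or a modified allele. Pigs of both sexes were used, and a pig at 1 age was not sampled again at another. Values are CPM, counts scaled to a common library size. That size covers only the genes of the table used here, on these 4 chromosomes, and not the whole transcriptome. Levels in CPM are therefore higher than they would be if scaled to the genes of all chromosomes. Genes named Metazoa_SRP held 7.09% to 19.7% of the counts of a library. Since the tissue is a mixture, fewer cells of a type and less RNA per cell cannot be told apart.

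Most of these genes encode nuclear proteins with tandem C2H2 zinc fingers, loops held by a zinc ion that each read a short stretch of DNA. The largest class carries a KRAB domain, which binds the scaffold protein TRIM28 and through it histone deacetylases and other silencing factors, and this class is best known for keeping transposable elements and some imprinted regions silent. A smaller class carries a SCAN domain that joins such proteins in pairs, and ZFP36, despite its symbol, is a CCCH zinc finger protein that binds RNA.

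The libraries held between 8887176 and 14883849 counts over the genes of the table. P3 replicate 5, the library with the fewest counts, also stood apart in its values, since it held the highest or the lowest level of the 12 libraries for 67 of the 119 zinc finger genes (56.3%, against 47.9% of protein coding genes). Its mean correlation with the other P3 libraries was 0.968, the lowest of any library with its own age. The main counts of genes called are therefore also given without it. Cardiomyocyte genes were abundant at every age, with the 5 measured markers MYBPC3, ACTC1, TPM1, TNNI3 and NPPB summing to 51208 to 71123 CPM, while erythroid markers stayed at or below 18.9 CPM in sum in every library. From P1 to P28 MYBPC3 rose (log2 fold change 0.57, adjusted p = 0.0158), ACTC1 fell (-0.60, adjusted p = 0.0340) and TPM1, TNNI3 and NPPB were not called. The 5 endothelial markers TEK, ERG, ENG, TIE1 and CDH5 summed to 845 to 1054 CPM at P1 and 799 to 868 CPM at P28. Of these TEK rose (0.53, adjusted p = 0.0356), and the others had lower means at P28 and were not called. The summed level of 4 fibroblast markers was 4684 to 5026 CPM at P1 and 1694 to 2085 CPM at P28, a sum made up mostly of FBN1, and that of 7 leukocyte markers was 474 to 675 CPM at P1 and 746 to 1198 CPM at P28.

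The zinc finger genes were expressed at modest levels, and 1 of them stood far above the others. Per kilobase of gene length the median of the 119 genes was 8.97 CPM, against 13.04 CPM for protein coding genes, both as means over the 12 libraries. In CPM, 67 of them lay between 20 and 100, 21 lay above 100 and 6 lay under 5. ZNF106 (ENSSSCG00000004725, chr1:128893970-128957326), which encodes an RNA-binding zinc finger protein needed for the upkeep of muscle innervation, had 741 CPM per kilobase. The next genes were ZNF148, a regulator that binds GC-rich promoters, at 61.7 CPM per kilobase, ZNF532, a component of a chromatin reader complex, at 54.4, ZNF24, a SCAN domain protein, at 52.5, and ZNF521, a cofactor that restrains differentiation of progenitor cells, at 37.2. At the other end ZNF541 had 0.115 and ZNF683 0.326 CPM per kilobase.

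ZNF106 alone made up between 35.2% and 54.5% of the summed CPM of the 119 genes, so the sum followed this gene. Its level was 7980, 5336 and 5316 CPM at P1, 4243, 3744 and 5224 at P3, 4794, 4337 and 4640 at P7 and 9014, 8034 and 7210 at P28. P28 lay above P3 and P7 in every library, and P1 replicate 4 lay between the P28 values while the other P1 libraries lay below them. ZNF106 rose 1.76-fold from P7 to P28 (log2 fold change 0.82, SE 0.18, adjusted p = 0.00775), whereas the difference between P1 and P28 did not pass the test (log2 fold change 0.38, SE 0.18, adjusted p = 0.169). The latter passed without P1 replicate 4 (log2 fold change 0.60, adjusted p = 0.0333). The cardiomyocyte markers MYBPC3 and TNNI3 also rose from P7 to P28 (log2 fold changes 0.69 and 0.71, adjusted p = 0.00425 and 0.00403). ACTC1, TPM1 and NPPB were not called (-0.50, -0.11 and 2.86, adjusted p = 0.0600, 0.721 and 0.0770). Their part in the ZNF106 result was not tested. Without ZNF106 the other 118 genes summed to 7011 ± 191 CPM at P1, 6961 ± 581 at P3, 6686 ± 173 at P7 and 7308 ± 190 at P28 (mean ± SD, n = 3 pigs). With TMM factors all 3 P7 libraries (6488 to 6808 CPM) lay below all 3 P1 libraries (6855 to 7224 CPM) and all 3 P28 libraries (7139 to 7514 CPM), while P3 overlapped each of the other ages. Such an order can depend on the scaling. For all 119 genes P7 lay below P1 with TMM factors (11098 to 11448 against 12269 to 14835 CPM). Scaled to library totals alone they overlapped (11335 to 12680 and 12386 to 13354), and without Metazoa_SRP counts they did not (13647 to 14117 and 14215 to 16593). The sum without ZNF106 was not computed under other scalings.

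**Figure D1:**
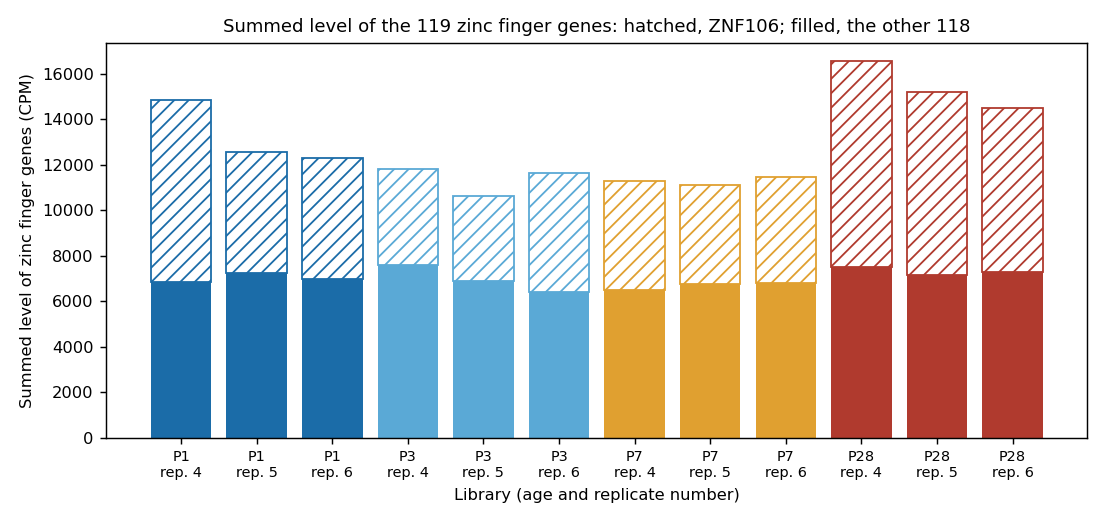
Summed CPM (y axis) of the 119 zinc finger genes in each of the 12 libraries (x axis, age and replicate number), with ZNF106 hatched and the other 118 genes filled. The filled part lies between 6420 and 7574 CPM in every library, and the hatched part is tallest in the 3 P28 libraries and P1 replicate 4.

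Between P1 and P28, between P7 and P28 and across the 4 ages, a smaller share of the zinc finger genes changed than of all genes tested. Such shares are given here as descriptions of the list, with no test of the list as a set. From P1 to P7 the order of the shares changed with the fit, as given below. From P1 to P28, 10 of the 119 genes (8.4%) changed with an adjusted p under 0.05, against 15.3% of all genes, with 6 higher and 4 lower. Of all genes, 7.38% were higher and 7.93% lower at that threshold. From P7 to P28, 12 genes (10.1%) changed, 9 upward and 3 downward, against 18.8% of all genes, of which 8.34% were higher and 10.5% lower. From P1 to P7 the only call was ZNF683 (0.84%, against 2.01% of all genes), which was also the only call between P1 and the mean of the 3 later ages, where 2.46% of all genes differed. ZNF683, also 1 of the 6 genes higher at P28 than at P1, met the condition on counts only through libraries of P7 and P28, where it was high, so nothing is drawn from these calls. Leaving it out, 9 genes were called between P1 and P28, 5 of them higher. From P1 to P3 no zinc finger gene passed the quasi-likelihood test in edgeR, where 0.0543% of all genes did, nor did any with DESeq2 or limma voom. At an unadjusted p under 0.05, 9 zinc finger genes and 15.2% of all genes differed between P1 and P3 in edgeR, and 11 zinc finger genes did with DESeq2 (15.8% of all genes) and with limma voom (14.2%). Across all 4 ages at once, 18 genes (15.1%) differed, against 21.4% of all genes. With the replicate number as a block there were 12 (10.1%, against 20.1% of all genes).

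In the study, a change needed a log2 fold change beyond 0.5 in either direction and a p of at most 0.05, and whether that p was adjusted is not given in the sources used here. With unadjusted p-values 5 zinc finger genes differed between P1 and P3, 7 between P1 and P7, 11 between P1 and P28, 2 between P1 and the later ages and 16 between P7 and P28, while the shares of all genes were 10.6%, 11.7%, 23.1%, 9.41% and 25.1%. The adjusted counts moved with single libraries, and the shares of all genes moved with them. From P1 to P28 there were 5 calls without P1 replicate 6 or without any 1 of the 3 P28 libraries, where 8.42% to 9.92% of all genes were called, and 16 (13.4%, against 25.6% of all genes) without P3 replicate 5. Between P7 and P28 there were 6 or 7 calls without any 1 P7 library or P28 replicate 6, where 10.6% to 12.9% of all genes were called, and 24 (20.2%, against 28.3% of all genes) without P3 replicate 5. Among all 4 ages the count was 23 (19.3%, against 30.9% of all genes) without P3 replicate 5 and 26 (21.8%, against 29.8%) without P3 replicate 4. It was 9 to 16 without any 1 P1 library (16.1% to 20.1% of all genes), 6 to 8 without any 1 P7 library (15.1% to 16.7%) and 4 to 7 without any 1 P28 library (13% to 14.3%).

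**Figure D2:**
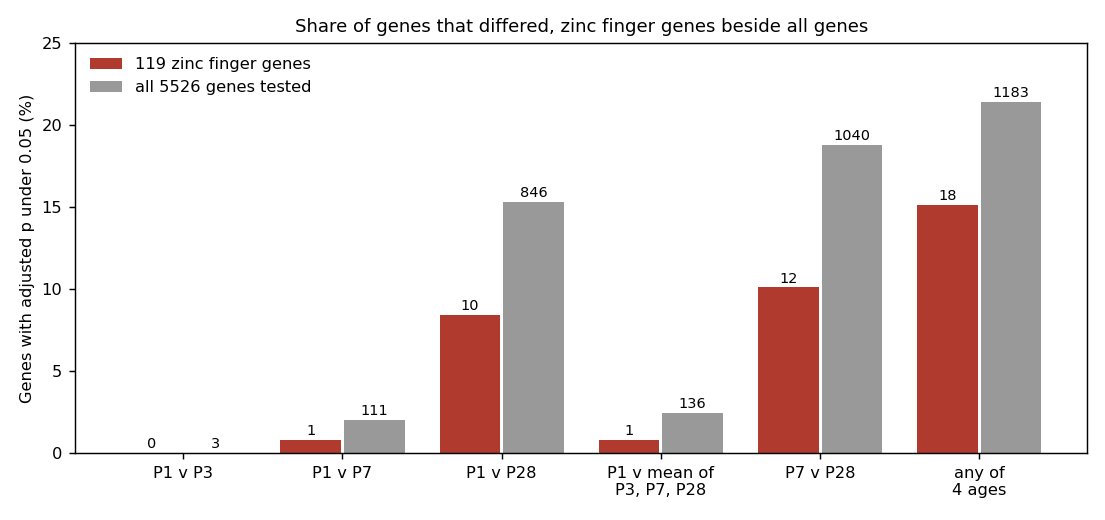
Share of genes (y axis, percent) with an adjusted p under 0.05 in each comparison (x axis), for the 119 zinc finger genes and for all 5526 genes tested, with the number of genes above each bar. The bar of the zinc finger genes is lower in each of the 6 comparisons, for example 8.4% against 15.3% between P1 and P28. Between P1 and P3 few genes of either set were called (0 and 3). Between P1 and P7, and between P1 and the later ages, the bar is ZNF683 alone. Without P3 replicate 5 the order between P1 and P7 was reversed (7.56% against 5.95%).

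ZNF683 was near 0 at the younger ages (ENSSSCG00000040579, chr6:83758978-83765855). It encodes a transcription factor of tissue-resident lymphocytes. Its counts were 0, 1 and 0 in the P1 libraries, 3, 0 and 2 at P3, 8, 12 and 6 at P7 and 25, 12 and 9 at P28. Every P7 and P28 library lay above every P1 and P3 library. Only P7 replicate 5 and P28 replicates 4 and 5 reached 10 counts, so the gene was tested only because of the ages at which it was high, and its differences are given as a description. With a floor of 3 counts per library in place of the P1 values, ZNF683 was at least 2.92-fold higher at P7 and at least 5.65-fold higher at P28, at levels of 0.669 ± 0.159 and 1.29 ± 0.619 CPM (n = 3). Among the 7 leukocyte markers, which are best known from myeloid cells and not from lymphocytes, TYROBP, SPI1 and C1QB rose from P1 to P28, with log2 fold changes of 0.90, 0.70 and 0.73 and adjusted p-values of 0.0259, 0.0410 and 0.0493, and all 7 had higher mean levels at P28. Their part in the ZNF683 result was not tested.

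ZFP36 (ENSSSCG00000028056, chr6:48052137-48066257) encodes tristetraprolin, which binds AU-rich elements of cytokine and other mRNAs and speeds their decay. Its level was 49.2, 52.8 and 61.9 CPM at P1 and 93.8, 111 and 90.8 CPM at P28, with P3 at 45.2, 75.03 and 67.4 and P7 at 49.8, 52.3 and 47.2 CPM. All P28 libraries lay above all libraries of the other ages. It rose 1.80-fold from P1 to P28 (log2 fold change 0.85, SE 0.18, adjusted p = 0.00782) and 1.98-fold from P7 to P28 (log2 fold change 0.98, SE 0.18, adjusted p = 0.00280), and both calls were kept without any 1 library. The leukocyte markers above moved with it between P7 and P28, where 5 of 7 rose, and their part was not tested.

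ZNF770 (ENSSSCG00000004799, chr1:136121110-136130061), a C2H2 gene without a KRAB domain, also rose from P1 to P28 in every fit without 1 library. Its level was 123, 105.9 and 105.5 CPM at P1, 123, 82.4 and 112 at P3, 150.2, 141 and 143 at P7 and 245, 173 and 169 at P28. P1, P7 and P28 did not overlap, in that order from low to high, and P3 overlapped P1, although P28 replicate 4 was well above the other P28 libraries. The rise from P1 to P28 was 1.76-fold (log2 fold change 0.81, SE 0.17, adjusted p = 0.00843). AQR, a protein coding gene that overlaps ZNF770, had a log2 fold change of 0.13 (adjusted p = 0.621) over the same ages. ZFP36 overlaps PAF1, whose log2 fold change was 0.28 (adjusted p = 0.0908). The strand used in counting is not given in the sources used here, so reads of overlapping genes may have been shared.

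ZNF236, ZNF227 and ZNF331 also rose from P1 to P28, by 1.45-, 1.43- and 1.63-fold, and each lost its call without some library. ZNF236 (ENSSSCG00000023533, chr1:147690556-147782129), a C2H2 gene without a KRAB domain, had 102, 98.3 and 94.0 CPM at P1 and 162, 135 and 131 at P28 (log2 fold change 0.54, SE 0.13, adjusted p = 0.0157). ZNF227 (ENSSSCG00000033420, chr6:50814729-50829107), a KRAB gene, had 32.5, 32.7 and 30.4 CPM at P1 and 46.3, 44.8 and 45.6 at P28 (log2 fold change 0.52, SE 0.13, adjusted p = 0.0207). ZNF331 (ENSSSCG00000031793, chr6:56598915-56611107), a KRAB gene that is imprinted in humans, had 22.5, 32.5 and 30.1 CPM at P1 and 48.3, 39.9 and 50.4 at P28 (log2 fold change 0.70, SE 0.20, adjusted p = 0.0352). In all of them every P28 library lay above every P1 and every P7 library. The ZNF236 call was lost without P1 replicate 5, P1 replicate 6 or P28 replicate 4 (adjusted p up to 0.0724). That of ZNF227 was lost without P1 replicate 5 or 6 or any 1 P28 library (up to 0.0877). That of ZNF331 was lost without P1 replicate 4 or 6, P7 replicate 4, or P28 replicate 4 or 6 (up to 0.114), and with the replicate number as a block it missed the threshold (adjusted p = 0.0568). The block instead called ZFP1, named here after its values were seen, as lower at P28 (adjusted p = 0.0429, against 0.0583 without the block).

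The steepest fall was that of ZNF536 (ENSSSCG00000029234, chr6:40292351-40771730), a repressor of neuronal differentiation that is best known from the nervous system. Its level was 19.5, 26.4 and 21.9 CPM at P1, 22.1, 41.9 and 5.78 at P3, 6.65, 5.12 and 19.1 at P7 and 3.13, 2.47 and 4.83 at P28. Every P1 library lay far above every P28 library, while P3 spread widely, from 5.78 CPM in replicate 6 to 41.9 CPM in replicate 5, and P7 replicate 6 lay near the P1 values. The fall from P1 to P28 was -2.71 on the log2 scale (SE 0.64, adjusted p = 0.0145), and it was lost without P28 replicate 4 or 5 (up to 0.0557). Of 4 fibroblast markers, FBN1 and TCF21 fell from P1 to P28, with log2 fold changes of -1.82 and -1.05 and adjusted p-values of 6.05e-05 and 0.000678. COL5A1 and COL6A1 had log2 fold changes of -0.76 and 0.33 and adjusted p-values of 0.200 and 0.517, and the part of a changed cell composition in the ZNF536 result was not tested.

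ZNF621 (ENSSSCG00000026550, chr13:24737062-24744558), a KRAB gene, had 7.39, 6.48 and 6.67 CPM at P1, 5.82, 5.91 and 4.69 at P3, 6.74, 8.04 and 5.81 at P7 and 3.85, 3.46 and 3.05 at P28. The P28 libraries lay below all 9 younger libraries. It fell to 0.51 of its P1 level at P28 (log2 fold change -0.98, SE 0.22, adjusted p = 0.0120) and similarly from P7 (log2 fold change -0.99, SE 0.22, adjusted p = 0.00962). Only the first of these calls was lost in any fit without 1 library, and that was without P28 replicate 6 (adjusted p = 0.0514).

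ZNF473 (ENSSSCG00000037710, chr6:55009800-55023118) encodes a KRAB zinc finger protein of the U7 snRNP that takes part in processing replication-dependent histone mRNAs. It had 47.1, 43.1 and 44.3 CPM at P1, 32.1, 33.4 and 39.8 at P3, 38.9, 48.2 and 40.6 at P7 and 34.3, 28.0 and 28.3 at P28. The P28 libraries lay below those of P1 and P7 and overlapped those of P3 (log2 fold change -0.57, SE 0.15, adjusted p = 0.0207). VRK3, which overlaps ZNF473, had a log2 fold change of 0.32 (adjusted p = 0.317) from P1 to P28. ZNF470 (ENSSSCG00000039914, chr6:60872547-60903638), a KRAB gene that overlaps ZFP28, had 31.7, 37.2 and 39.2 CPM at P1, 28.1, 29.9 and 30.5 at P7 and 28.1, 23.1 and 26.1 at P28 (log2 fold change -0.49, SE 0.14, adjusted p = 0.0302), with every P28 library below every P1 and every P7 library. ZFP28 itself, also a zinc finger gene of this list, had a log2 fold change of -0.04 (adjusted p = 0.844). The ZNF473 call from P1 to P28 was lost without P1 replicate 4 or 6 or P28 replicate 5 or 6 (adjusted p up to 0.0798), and the ZNF470 call without P1 replicate 5 or 6 or P28 replicate 5 or 6 (up to 0.115).

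**Figure D3:**
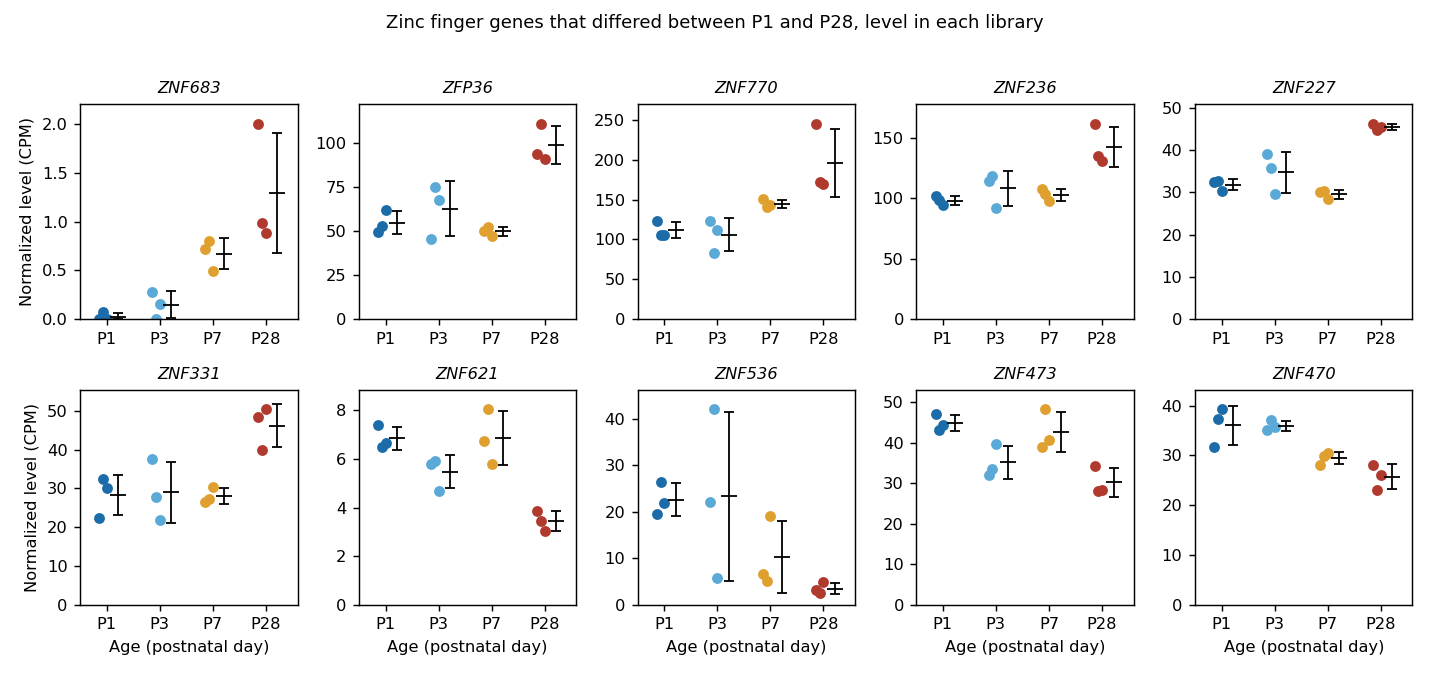
Level (y axis, CPM) of the 10 zinc finger genes that differed between P1 and P28, by age (x axis), with 1 coloured point per library and the mean and SD (n = 3) in black beside them. The 6 genes with higher levels at P28 come first, among them ZNF683, which was tested only because of its high ages, and the 4 that fell follow, and ZNF536 at P3 shows the widest spread, from 5.78 to 41.9 CPM.

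Between P7 and P28, beside ZFP36, ZNF106, ZNF227, ZNF236, ZNF331, ZNF621 and ZNF473, the genes called were ZNF692, ZNF660, ZNF579, ZNF446 and ZNF235. All but ZNF692 were chosen for description after their values were seen. ZNF692 had 24.3, 25.7 and 25.5 CPM at P7 and 40.6, 37.7 and 42.5 at P28 (log2 fold change 0.68, SE 0.16, adjusted p = 0.0110), kept without any 1 library. Its P28 libraries also lay above those of P1, at 28.8, 28.7 and 28.3 CPM, and that difference missed the threshold by little (log2 fold change 0.49, SE 0.16, adjusted p = 0.0514). It passed with DESeq2 (adjusted p = 0.0202), limma voom (0.0483), protein coding genes only (0.0449) and only the ages compared (0.0181). Without any 1 P3 library it also passed (0.00598 to 0.0487), and without any 1 of the other libraries it did not (up to 0.148).

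ZNF660, a small C2H2 gene on chromosome 13, had its highest level at P7. It had 8.28, 8.35 and 11.3 CPM at P1, 12.9, 14.5 and 17.8 at P7 and 6.18, 6.83 and 5.22 at P28, so the P7 libraries lay above both neighbours. The fall from P7 to P28 was -1.31 on the log2 scale (adjusted p = 0.0127), lost without P28 replicate 6 (0.0512). ZNF579, ZNF235 and the SCAN-KRAB gene ZNF446 showed the opposite order, with their lowest mean level at P7. ZNF579 had 34.6, 32.8 and 30.7 CPM at P1, 18.9, 20.1 and 18.1 at P7 and 30.5, 37.5 and 44.7 at P28. For ZNF235, a KRAB gene, the values were 66.2, 87.9 and 81.8, then 42.9, 47.1 and 56.3, then 66.0, 70.0 and 87.3 CPM. In both genes P7 lay below all libraries of P1 and P28, and P1 and P28 overlapped. From P7 to P28 the log2 fold changes were 0.98 for ZNF579, 0.61 for ZNF235 and 0.55 for ZNF446, with adjusted p-values of 0.0248, 0.0351 and 0.0292. ZNF446 overlaps an unnamed protein coding gene (ENSSSCG00000031342), whose log2 fold change from P7 to P28 was 0.42 (adjusted p = 0.149), so shared reads may bear on its value. The ZNF579 and ZNF446 calls were lost without any 1 P7 library or P28 replicate 5 or 6 (adjusted p up to 0.0915 and 0.122), and the ZNF235 call without P7 replicate 4 or 5 or P28 replicate 5 or 6 (up to 0.137). Between these ages the ZNF236 call was also lost without any 1 P7 library or P28 replicate 4 (up to 0.0918), that of ZNF331 without any 1 P7 library or P28 replicate 4 or 6 (up to 0.0930), and that of ZNF473 without P1 replicate 5 or 6, any 1 P7 library or P28 replicate 5 or 6 (up to 0.132).

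Mean levels were often lowest at P7. Of the 119 genes, 43 had their lowest mean level at P7 (36.1%, against 22.6% of protein coding genes) and 6 their highest (5.04%, against 21.7%), whereas P28 held the highest for 40 (33.6%, against 30.7%) and the lowest for 35 (29.4%, against 35.1%). From P1 to P7, 85 of the 119 genes (71.4%) had a lower mean, against 52.3% of protein coding genes, and the median log2 fold change was -0.10. The differences were small, with 110 of the 119 genes (92.4%) within 0.5 on the log2 scale. All 3 P7 libraries lay below all 3 P1 libraries in 32 genes (26.9%, against 15.2% of all genes) and above them in 9 (7.56%, against 15.3%). From P7 to P28, 75 genes (63%) had a higher mean, against 50.1% of protein coding genes, with a median of 0.06. The share lower at P7 than at P1 ranged from 63.9% without P7 replicate 4 to 74.8% without P7 replicate 6.

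No gene fell from P1 to P7 in the fit of all 12 libraries, but several did in other fits, and they are named here after their values were seen. Without P3 replicate 5, the count was 9 genes (7.56%, against 5.95% of all genes), of which 8 fell. With only the P1 and P7 libraries it was 8 (6.84%, against 6.58%), of which 7 fell, and all of those 7 were among the 8. DESeq2 gave 5 (4.2%, against 6.59%), of which 4 fell. The 4 genes that fell in all of these fits were ZNF787, ZNF274, ZNF235 and ZNF606. ZNF787 had 25.7, 22.5 and 28.9 CPM at P1 and 16.5, 13.8 and 13.8 at P7 (log2 fold change -0.80, SE 0.20, adjusted p = 0.0598 with all libraries). ZNF274, a SCAN-KRAB gene whose protein marks the ends of other zinc finger genes with silencing histone methylation, had 62.0, 47.7 and 42.3 CPM at P1 and 33.7, 28.3 and 28.6 at P7 (log2 fold change -0.75, SE 0.20, adjusted p = 0.0683). In ZNF787, ZNF274 and ZNF606 every P7 library lay below every P1 library. ZNF606, a KRAB gene, had 131, 162 and 138 CPM at P1 and 104, 101 and 113 at P7 (log2 fold change -0.44, SE 0.13, adjusted p = 0.0923). Counts under single left-out libraries were 2 without P3 replicate 4 (1.68%, against 3.03% of all genes) and 3 without P3 replicate 6 (2.52%, against 3.73%). They were 0 without any 1 of the P1 and P7 libraries, where 0.383% to 0.563% of all genes were called, and without P28 replicate 4 or 5 (1.82% and 1.47%).

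**Figure D4:**
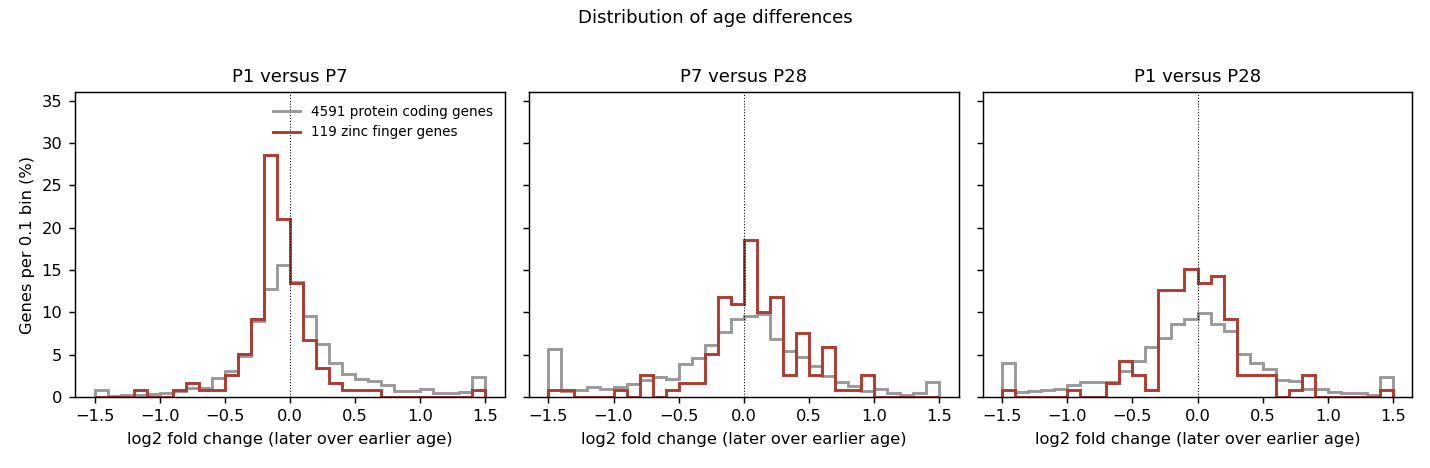
Share of genes (y axis, percent per bin of 0.1) by log2 fold change (x axis, later over earlier age) for the 119 zinc finger genes and the 4591 protein coding genes tested, in 3 comparisons, with changes beyond 1.5 placed in the outermost bins. The zinc finger genes form the narrower curve in each, and between P1 and P7 their peak lies left of 0.

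The sizes of the differences between P1 and P28 are given beside those of protein coding genes, with no test between the lists. From P1 to P28 the median absolute log2 fold change was 0.18 for the zinc finger genes and 0.29 for protein coding genes, and 102 of the 119 (85.7%, against 70.2%) lay within 0.5. The median signed change was -0.02, with 58 genes higher and 61 lower. All 3 P28 libraries lay above all 3 P1 libraries in 24 genes (20.2%, against 22.5% of all genes) and below them in 16 (13.4%, against 21.9%). Between P7 and P28 these counts were 33 (27.7%, against 23.7%) and 17 (14.3%, against 23.3%). The order of the levels was largely the same across ages, with a Spearman correlation of 0.973 between the P1 and P28 means over the 119 genes and 0.978 over protein coding genes. These correlations are across genes measured in the same libraries, which are not independent replicates.

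Several zinc finger genes with studied roles had no call in any comparison. ZNF24 had 349, 356 and 336 CPM at P1 and 334, 313 and 323 at P28 (log2 fold change -0.10, SE 0.13, adjusted p = 0.644), with all P28 libraries below all P1 libraries by a narrow margin. ZNF148 had 188, 225 and 199.8 CPM at P1 and 196, 217 and 224 at P28, which overlapped (log2 fold change 0.06, SE 0.14, adjusted p = 0.821). ZNF532 had 305, 362 and 338 CPM at P1 and 468, 372 and 392 at P28, which did not overlap (log2 fold change 0.29, SE 0.14, adjusted p = 0.164). ZNF521 overlapped between these ages, at 143, 193 and 184 and 165, 178 and 173 CPM (log2 fold change -0.01, SE 0.16, adjusted p = 0.976). ZNF445, a KRAB protein that maintains methylation at imprinted regions, had 119, 140.3 and 137 CPM at P1 and 154, 136 and 140.4 at P28, again overlapping (log2 fold change 0.12, SE 0.13, adjusted p = 0.585). With SEs of 0.13 to 0.16, differences of this size could not be told from none.

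In ZNF423, ZNF462 and ZNF609, P3 replicate 5 held the highest level of all 12 libraries. ZNF423, a cofactor of SMAD and EBF proteins that commits cells to the fat lineage, had 34.1, 79.9 and 44.4 CPM at P3, against 35.5, 41.7 and 43.9 at P1 and 24.4, 31.9 and 38.3 at P28 (log2 fold change -0.36, SE 0.27, adjusted p = 0.405 from P1 to P28). At P7 it had 46.2, 55.4 and 39.6 CPM, above all P28 libraries. From P7 to P28 its log2 fold change was -0.58 (adjusted p = 0.162). That difference was called without P3 replicate 5 (adjusted p = 0.0386) and with only the ages compared (0.0451). ZNF462, mutated in a human developmental disorder, had 175, 246 and 113 CPM at P3 and 137, 138 and 136 at P1 (log2 fold change 0.38, SE 0.27, adjusted p = 0.5002 from P1 to P3). ZNF609, whose transcript is also known to form a circular RNA in muscle cells, had 96.8, 134 and 77.8 CPM at P3 and 89.4, 80.9 and 87.5 at P1 (log2 fold change 0.26, SE 0.18, adjusted p = 0.489). In each of them 1 P3 library lay below all P1 libraries and the other two above them. From P1 to P3 the smallest p belonged to ZNF567, a KRAB gene named for that reason, with 40.4, 57.0 and 49.9 CPM at P1 and 40.2, 31.2 and 31.1 at P3 (log2 fold change -0.52, SE 0.17, adjusted p = 0.220). All 3 P3 libraries lay above all 3 P1 libraries in 4 of the 119 genes (3.36%, against 8.41% of all genes) and below them in 10 (8.4%, against 7.62%).

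By protein class, 66 of the 119 genes were listed with a KRAB domain, of which 6 also had a SCAN domain, and 53 without, of which 4 had a SCAN domain. The class is that of the human gene with the same symbol. KRAB genes accounted for 2 rises and 3 falls from P1 to P28 (7.58%, against 15.8% of protein coding genes), and the genes without KRAB, ZNF683 included, for 4 rises and 1 fall (9.43%). From P1 to P7, 55 of the 66 KRAB genes (83.3%) had a lower mean, and 30 of the 53 others (56.6%) did, beside 52.3% of protein coding genes. Between P1 and the mean of the 3 later ages, 49 KRAB genes (74.2%) were lower and 20 of the others (37.7%), beside 50.3%. The first KRAB share ranged from 75.8% to 86.4% and the second from 62.1% to 78.8% when 1 library was left out. None of these KRAB genes passed the test in either comparison, and the difference between the classes was not tested. The summed CPM of the KRAB genes was 3126, 3336 and 3232 in the P1 libraries, 3507, 2892 and 2865 at P3, 2923, 2936 and 3055 at P7 and 3211, 3098 and 3255 at P28. With the TMM factors used (0.900 to 1.01 at P1 and 0.990 to 1.14 at P7) every P7 library lay below every P1 library. P3 spanned the values of all other ages, with 43 of the 66 KRAB genes (65.2%) at a lower mean than at P1, and P28 overlapped P1. The KRAB sum was not computed under another scaling.

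By chromosome, 81 of the 119 genes (68.1%) lay on chromosome 6, 14 on chromosome 2 and 12 each on chromosomes 1 and 13, while chromosome 6 held 34% of the protein coding genes tested. On chromosome 1, 2 genes rose from P1 to P28 (ZNF770 and ZNF236) and none fell (16.7%, against 15.9% of its protein coding genes), and all 12 had a higher mean at P28, beside 48.2% of protein coding genes of that chromosome. Without P28 replicate 4 this did not hold for all 12, since ZNF462 then had a log2 fold change of -0.24. Chromosome 6 held 4 rises, ZNF683 included, and 3 falls (8.64%, against 14.8% of its protein coding genes), and 49 of its 81 genes had a lower mean at P28. On chromosome 13, ZNF621 fell and no other gene was called (8.33%, against 17.2%), and on chromosome 2 none was called, where 15.7% of its protein coding genes were. The genes of chromosome 6 summed to 4193 ± 160 CPM at P1, 4175 ± 318 at P3, 3876 ± 86.4 at P7 and 4145 ± 73.7 at P28 (n = 3). Chromosome 2 had 700.4 ± 17.4 CPM at P1, 703 ± 93.2 at P3, 697 ± 31.0 at P7 and 759 ± 15.8 at P28. Chromosome 13 had 1001 ± 35.7 CPM at P1, 845 ± 141 at P3, 891 ± 43.8 at P7 and 1006 ± 10.4 at P28. Chromosome 1, which holds ZNF106, had 7327 ± 1513 CPM at P1, 5641 ± 606 at P3, 5812 ± 178 at P7 and 9484 ± 1093 at P28.

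Zinc finger genes are known to lie in tandem clusters, and 57 of the 120 genes (47.5%) lay in 8 groups of at least 4 with starts no more than 200 kb apart. The largest, chr6:45520895-46470075, held 14 genes, ZNF146, ZNF565, ZNF567, ZNF461, ZNF382, ZNF260, ZNF566, ZFP82, ZFP14, ZNF383, ZNF793, ZNF527, ZNF569 and ZNF570. None of them was called in any comparison in the fit of all 12 libraries, where 15.8% of protein coding genes were called from P1 to P28 and 19.9% from P7 to P28. In other fits ZNF527 was called from P7 to P28 (without P3 replicate 5 and with only the ages compared) and ZNF146 from P1 to P28 (with only the ages compared). Of the 14 genes, 11 had a lower mean at P7 than at P1, beside 52.3% of protein coding genes, and 13 a higher mean at P28 than at P7, beside 50.1%. They summed to 995 CPM at P1 and 1054 CPM at P28. Another group, chr6:50396242-51008479, held 9 genes with ZNF227 and ZNF235 among them. Both rose from P7 to P28 while no other gene of the 9 was called (22.2%, against 19.9% of protein coding genes). The next groups were picked after their values were seen. In chr6:62695611-63055808, with ZNF274 and ZNF446, all 7 genes had a lower mean at P7 than at P1, beside 52.3% of protein coding genes. In chr6:59634503-59767416, with ZNF579, all 6 had a higher mean at P28 than at P1, beside 48.6%. Others were mixed, such as chr6:60422389-60927200, where 4 of 7 were lower at P7 than at P1 and 2 of 7 higher at P28 than at P1. Neighbouring genes of a group can be similar in sequence, and how reads that fit several genes were counted is not given in the sources used here. Positions are those of the table, and they overlapped the Sscrofa11.1 positions of the same symbol in RefSeq for all 92 genes found there.

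**Figure D5:**
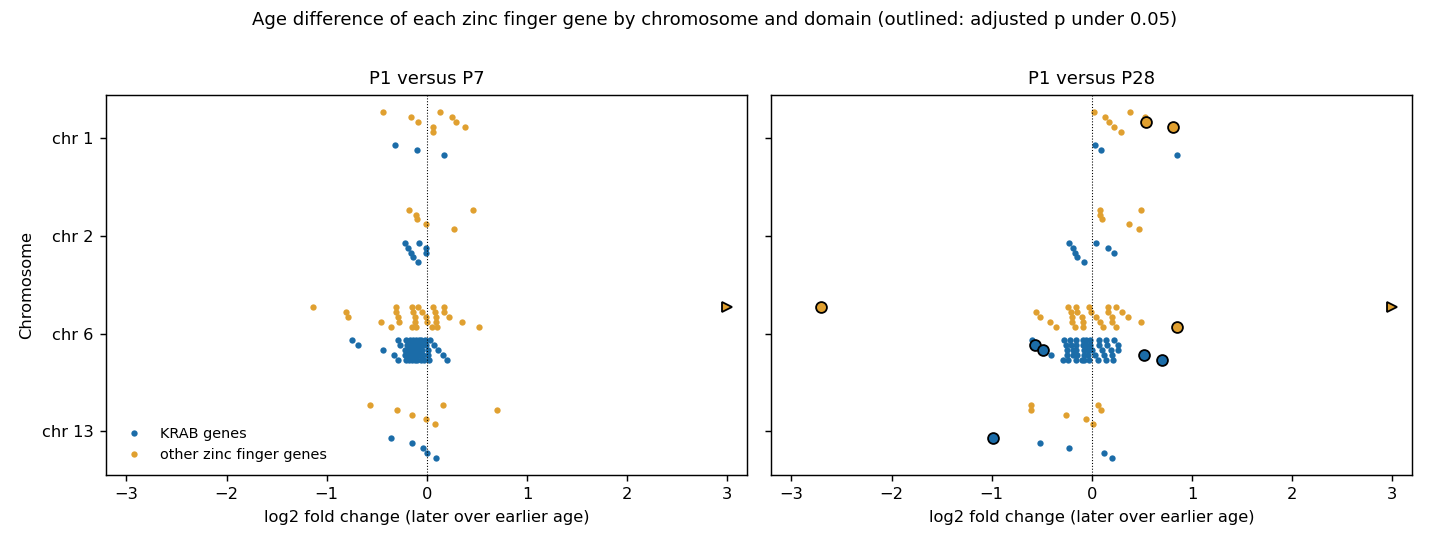
Log2 fold change (x axis, later over earlier age) of each of the 119 zinc finger genes from P1 to P7 and from P1 to P28, by chromosome (y axis) and with KRAB genes apart from the others, where outlined points have an adjusted p under 0.05 and the triangle marks ZNF683 beyond the axis. From P1 to P7 the KRAB genes lie mostly left of 0 (55 of 66), and from P1 to P28 all 12 genes of chromosome 1 lie right of it. The latter did not hold for ZNF462 without P28 replicate 4.

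Of the corepressor genes that work with KRAB proteins, 4 were measured and none was called between P1 and P28. TRIM28 had 356 ± 3.33 CPM at P1 and 348 ± 24.9 at P28 (log2 fold change -0.03, SE 0.17, adjusted p = 0.913). HDAC1, a histone deacetylase, had 125 ± 6.21 and 96.3 ± 5.79 CPM (log2 fold change -0.37, SE 0.13, adjusted p = 0.0648). Its fall from P7 to P28 passed the test (log2 fold change -0.45, SE 0.13, adjusted p = 0.0268). HDAC2 and TASOR, a silencing factor of the HUSH complex, had log2 fold changes of -0.22 and -0.16 from P1 to P28, with adjusted p-values of 0.388 and 0.509. Without P3 replicate 5 or P3 replicate 6, 1 of the 4 genes was called lower at P28 than at P1.

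Symbols of other families of C2H2 proteins (ZBTB, ZSCAN, ZKSCAN, KLF and PRDM followed by a number) gave 34 tested genes, among them ZBTB8OS, which matches by symbol but encodes no C2H2 protein, of which 3 rose from P1 to P28 and none fell (8.82%, against 15.8% of protein coding genes). ZBTB20, a repressor of the BTB family, had 99.2 ± 14.1 CPM at P1 and 159 ± 19.0 at P28 (log2 fold change 0.68, SE 0.16, adjusted p = 0.0121). PRDM1, which encodes the regulator Blimp-1 of lymphocytes and other cells, had 8.12 ± 3.42 and 16.4 ± 4.91 CPM (log2 fold change 1.01, SE 0.31, adjusted p = 0.0433). ZBTB7A had 66.3 ± 6.44 and 94.9 ± 0.852 CPM (log2 fold change 0.52, SE 0.16, adjusted p = 0.0473). The count of 3 became 1 without any 1 of the P1, P7 or P28 libraries, 9 without P3 replicate 5 and 5 without P3 replicate 6, where 25.6% and 17.6% of all genes were called.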

How the data were processed

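Heart RNA of 12 pigs, 3 at each of 4 ages, was sequenced by CD Genomics as strand-specific, ribosomal RNA-depleted total RNA libraries. The deposited table holds raw counts per gene with a gene length. The submitters' processing notes name STAR 2.7.9a, MultiQC 1.11 and the build Sscrofa10.2, but the aligner, counter, strand setting and build of the gene counts are not given in the sources used here. The table positions overlapped those of Sscrofa11.1. One incomplete last line was left out, and the table as used ends within chromosome 2. The column names give the age and numbers 4 to 6, which the labels do not use, so columns were mapped to ages only. The miRNA table and the circular RNA tables, which cover these libraries and those sequenced by Novogene and list positions without host genes, were not used.

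Genes with at least 10 counts in at least 3 libraries were fitted with edgeR 4.0.16 in R 4.3.3 (TMM factors, quasi-likelihood F test, all 12 libraries in 1 model), and p-values were adjusted over all 5526 genes by the Benjamini-Hochberg method. "Rose" and "fell" mean an adjusted p under 0.05. Libraries of an age differed by more than sampling noise, so each counted as 1 sample. Each age has its own pigs, so the replicate numbers pair no animals, but all 3 same-numbered pairs of P1 and P28 libraries deviated together (correlations of 0.331, 0.138 and 0.161), and calls between P1 and P28 that the replicate block changed are given beside their result. The common dispersion was 0.0446. In simulated counts for P1 versus P28, with 200 of 5526 genes changed, 61% of changes of 1 and 82% of changes of 1.5 on the log2 scale were called. Alternatives were DESeq2 1.42.0, limma voom (limma 3.58.1), other size factors, filters and gene sets, a replicate block, fits of only the ages compared, and leaving out each library. Intervals and floors (3 counts) cover counting error only.

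The genes named are those with the smallest p among calls (up to 12 from P1 to P28, 5 from P1 to P7, 5 from P7 to P28 and 3 from P1 to P3), the smallest p on each chromosome, the 5 highest per kilobase and 10 measured genes of a list of 18 with studied functions, 20 in all. Others are said to be chosen after their values were seen. The rule, lists and tests were chosen with earlier results of these data known.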

Additional observations from a re-analysis of the deposited data

How the results depend on the processing

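The counts of zinc finger genes called kept within 1.5 times the reported value under DESeq2's size factors, no filter on low counts and protein coding genes only. From P1 to P3 the count was 0 in every fit, where 0.0182% to 2.21% of all genes were called, and 5 (4.2%, against 10.6%) by the study's thresholds. From P1 to P7 the reported 1 became 5 with DESeq2, where 6.59% of all genes were called, and 2 with limma voom (3.6% of all genes). It became 0 with a mean count of at least 50 (2.61% of all genes), which leaves out ZNF683. The count was 8 with only the ages compared (6.58% of all genes) and 7 by the study's thresholds (11.7%). It was 0 to 9 when each library was left out in turn (0.383% to 5.95% of all genes). From P1 to P28 the 10 calls ranged from 5 to 16 with 1 library left out, while the share of all genes called ranged from 8.42% to 25.6%. For P1 against the mean of the later ages, the reported 1 became 0 with a mean count of at least 50 (2.12% of all genes) and 2 by the study's thresholds (9.41%). It was 0 to 2 with 1 library left out (0.673% to 4.36% of all genes). From P7 to P28 the 12 calls became 26 with only the ages compared (22% of the zinc finger genes, against 31.7% of all genes). They became 6 to 24 with 1 library left out, where 10.6% to 28.3% of all genes were called. Among all ages the 18 calls ranged from 4 to 26 with 1 library left out, beside 13% to 30.9% of all genes. The 4 corepressor genes gave 1 call from P1 to P28 with DESeq2 and with only the ages compared, and 0 to 1 with 1 library left out. The other C2H2 families gave 7 with only the ages compared and 1 to 9 with 1 library left out. Of all genes these fits called 19.7% with DESeq2, 22.5% with only the ages compared and 8.42% to 25.6% with 1 library left out. Where these counts moved, the cause was not tested. No log2 fold change of a gene named changed sign while called. Of the single-gene values, chromosome counts and shares under alternatives, 706 stayed the same, 61 gene calls were lost, 8 were gained and 19 counts or shares moved. The same means an unchanged call for a gene, a count within 1.5 times or a share within 10 percentage points. Uncalled genes whose sign changed are among the 706, so that number does not measure gene calls alone.

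Deviations of same-numbered libraries correlated between -0.186 and 0.331 over 18 pairs, of which 5 were above 0.1, and other pairs between -0.263 and 0.249. Between P1 and P28 all 3 were above 0.1, but P1 replicate 5 correlated better with P28 replicate 6 (0.198) than with its own number (0.138). With the number as a replicate block, the count for P1 against the mean of the later ages was 0 (2.1% of all genes), and the other counts stayed within 1.5 times. Among all ages 12 zinc finger genes were called with the block and 18 without it (10.1% and 15.1%). The shares of all genes were 20.1% and 21.4%. ZNF331 from P1 to P28 and ZNF473 from P7 to P28 missed the threshold (adjusted p of 0.0568 and 0.0525), and from P1 to P28 9 of 10 calls were kept.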
